A study of Homo sapiens with 2 samples.

Results

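The snoRNA host long non-coding RNAs were followed in HEK293T cells that had received tRF-3004b, and in the same line given a non-targeting RNA. The set holds 35 genes of the 28130 named in the tables. They are the genes with an SNHG symbol followed by a number, together with GAS5, ZFAS1, DANCR, EPB41L4A-AS1, CYTOR and MEG8. They were chosen by name, but with earlier results of these data known. The study had 2 libraries of poly-A RNA, 1 from cells transfected with a mimetic of tRF-3004b and 1 from cells transfected with the control RNA (named GL2). Both RNAs carried a 5' phosphate, both were used at 500 nM by reverse transfection with a lipid reagent, and both cultures were collected at 120 h. HEK293T is a human embryonic kidney cell line, and a tRF is a small RNA cut from a transfer RNA. With 1 library per group there is no replicate check, no p-value is given, and every difference compares these libraries and not the conditions.

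A snoRNA host gene carries small nucleolar RNAs in its introns. The spliced host RNA leaves the intron behind, and the snoRNA is trimmed out of the intron and packed with proteins. By base pairing it guides these proteins to the sites of ribosomal RNA that they methylate or pseudouridylate. Many hosts have no long reading frame, begin with a run of pyrimidines like the messengers of ribosomal proteins, and are broken down by nonsense-mediated decay when they are translated. GAS5 was named for its rise in growth-arrested mouse cells, and it is a standard example of such a host.

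The transfected RNAs are shown first because their bases 2 to 8, in capitals, are the seed through which a small RNA in an Argonaute protein can pair with a target. The sequences are those in the submitters' labels.
tRF-3004b: uCAAAUCUcgguggaaccucca
control: cGUACGCGgaauacuucgauu
The tRF-3004b mimetic has 22 bases and the control RNA 21.

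The tRF-3004b library held 1809193 estimated counts and the control library 19609933, a 10.84-fold difference in depth, so the tRF-3004b counts set the precision of every ratio. Of all named genes, 13752 had a mean of at least 1 CPM (counts scaled to a common library size) over both libraries and are called measured. Markers of other cell types differed between the libraries. The summed level of 5 fibroblast markers was 91.7 CPM in the tRF-3004b library and 9.43 CPM in the control library, that of 5 blood markers was 29.8 and 3.26 CPM, and that of 4 epithelial markers was 34.9 and 10.5 CPM. The summed level of 7 markers of HEK293T cells was 1146 CPM in the tRF-3004b library and 1707 CPM in the control library. VIM made up most of both sums, with 979 and 1447 CPM, so they mainly follow this gene. Of the 7 markers, 2 were higher and 5 lower in the tRF-3004b library. Among these, LHX1 had 0 and 61 counts, and PAX2 had 2 and 19. Their part in the results below was not tested. In bulk RNA, fewer cells of a type and less RNA per cell cannot be told apart.

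Summed over the set, the hosts differed little between the libraries. Of the 35 members, 28 were measured and 34 had at least 1 count in a library. Summed over all members, 3660 counts were found in the tRF-3004b library and 42863 in the control library, which is 2060 and 2149 CPM. The log2 ratio, tRF-3004b over control throughout, was -0.06 (95% counting interval -0.11 to -0.01). Without SNHG29, the member with most counts, it was 0.01 (-0.05 to 0.07). The median log2 ratio of the 28 measured members was -0.04, beside -0.11 for all measured genes. All intervals cover counting error only, because no molecular identifiers are named in the labels and PCR copies may be counted more than once.

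Few hosts lay beyond 2-fold, and their share was near that of all genes. At least 2-fold higher were 4 of 28 members, SNHG12, SNHG14, SNHG15 and SNHG25, beside 12.3% of all measured genes. At least 2-fold lower were 3 members, SNHG21, SNHG32 and SNHG4, beside 14.3% of all measured genes. The interval lay wholly above 0 for 5 members (DANCR, SNHG12, SNHG15, SNHG5 and SNHG8), beside 23.3% of all genes, and wholly below 0 for 7 (GAS5, SNHG16, SNHG21, SNHG29, SNHG32, SNHG33 and SNHG4), beside 28.6%. Above 0 were 12 members and below 0 were 16, beside 44.5% and 55.5% of all genes. These counts give no result about the hosts as a set. SNHG14, SNHG25 and SNHG19 passed the filter on low levels only through the tRF-3004b library. With gene TPM in place of scaled counts, 21.8% of all genes past 2-fold were higher, against 46.1% with scaled counts.

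**Figure D1:**
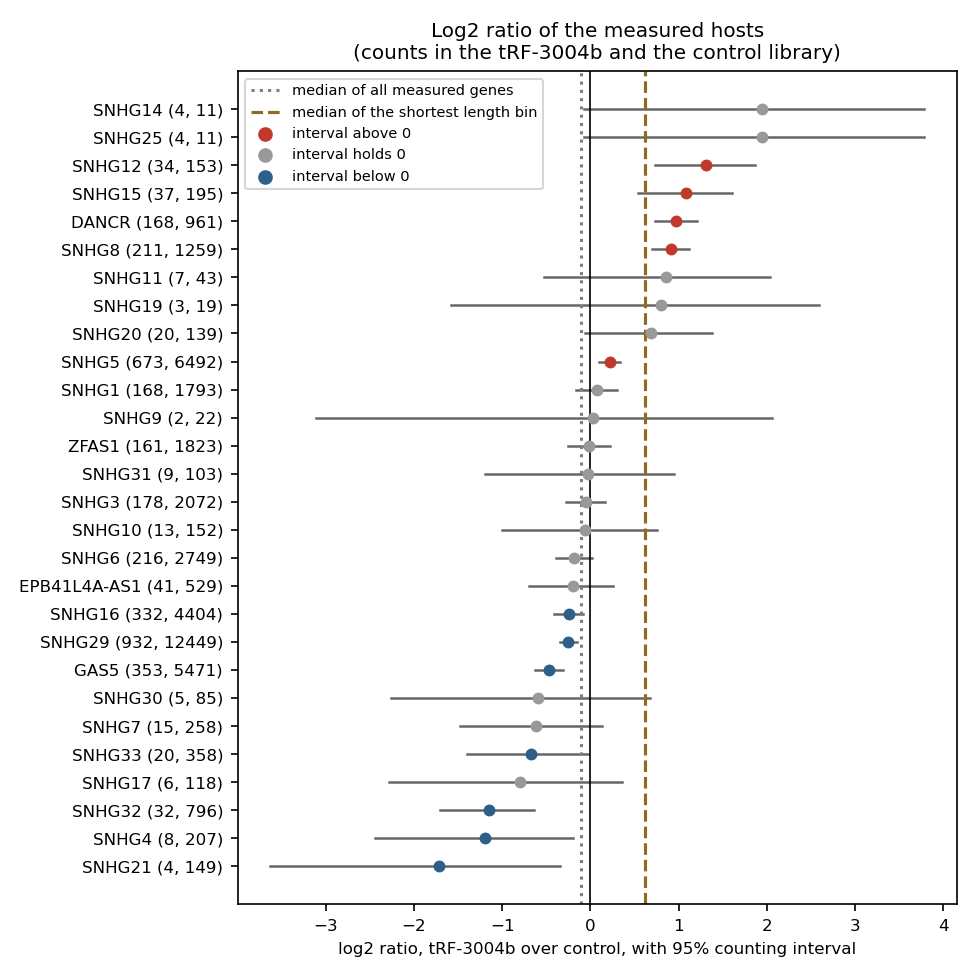
Log2 ratio (tRF-3004b over control) for the 28 measured hosts, with 95% counting intervals, and each host's counts in the tRF-3004b and the control library in brackets. The dotted line is the median of all measured genes (-0.11) and the dashed line that of the shortest length bin (0.62). DANCR and SNHG8 lie near 1 with narrow intervals, and GAS5 lies at -0.47.

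Among the well-counted hosts, 2 stood above the others. DANCR, a host known for keeping progenitor cells undifferentiated (chromosome 4, 52712394 is its annotated start on GRCh38), had 168 counts in the tRF-3004b library and 961 in the control library, which is 94.6 and 48.2 CPM. Its log2 ratio was 0.97 (0.73 to 1.21). SNHG8, the host of SNORA24 (chromosome 4, 118278762 to 118279823), had 211 counts in the tRF-3004b library and 1259 in the control library, which is 119 and 63.1 CPM. Its log2 ratio was 0.91 (0.69 to 1.12). Both intervals lay wholly above those of SNHG5 and of the lower hosts.

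GAS5 stood lowest among the well-counted hosts. GAS5 (chromosome 1, 173863901 to 173869045, minus strand) had 353 counts in the tRF-3004b library and 5471 in the control library, which is 199 and 274 CPM. Its log2 ratio was -0.47 (-0.62 to -0.31). SNHG29, with most counts of all members, had 932 counts (525 CPM) in the tRF-3004b library and 12449 (624 CPM) in the control library, a log2 ratio of -0.25 (-0.35 to -0.15). SNHG16 had 332 and 4404 counts, a log2 ratio of -0.24 (-0.41 to -0.08). These hosts were lower in the tRF-3004b library by less than 2-fold.

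The other well-counted hosts lay close to 0. SNHG5, the host of SNORD50A and SNORD50B, had 673 counts in the tRF-3004b library and 6492 in the control library, a log2 ratio of 0.22 (0.10 to 0.33), but the sign turned with gene TPM (-0.12) and after the length median was subtracted (-0.40). SNHG6 had 216 and 2749 counts, a log2 ratio of -0.18 (-0.39 to 0.02). SNHG3 had 178 and 2072 counts, a log2 ratio of -0.05 (-0.28 to 0.17). SNHG1, which holds 8 snoRNAs on chromosome 11, had 168 and 1793 counts, a log2 ratio of 0.07 (-0.16 to 0.30). ZFAS1, named for its place antisense to the start of ZNFX1, had 161 and 1823 counts, a log2 ratio of -0.01 (-0.25 to 0.22). The intervals of these last 4 hosts held 0. Over the 10 members with at least 100 tRF-3004b counts, the median log2 ratio was -0.03, beside 0.03 for the 3993 genes with as many counts.

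Hosts of intermediate counts moved in both directions. SNHG12 had 34 counts in the tRF-3004b library and 153 in the control library, a log2 ratio of 1.31 (0.74 to 1.86). SNHG15 had 37 and 195 counts, a log2 ratio of 1.09 (0.54 to 1.60). SNHG20 had 20 and 139 counts, a log2 ratio of 0.69 (-0.06 to 1.37). The interval of SNHG20 held 0, while those of the first pair did not. SNHG32 (named C6orf48 in GENCODE) had 32 counts in the tRF-3004b library and 796 in the control library, a log2 ratio of -1.15 (-1.71 to -0.64). SNHG33 had 20 and 358 counts, a log2 ratio of -0.67 (-1.40 to -0.02). SNHG4 had 8 and 207 counts, a log2 ratio of -1.20 (-2.44 to -0.20), and SNHG21 had 4 and 149, a log2 ratio of -1.71 (-3.63 to -0.34). The wide intervals of SNHG4 and SNHG21 follow their few tRF-3004b counts. EPB41L4A-AS1 had 41 and 529 counts, a log2 ratio of -0.20 (-0.70 to 0.26).

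The remaining hosts were counted 15 times or fewer in the tRF-3004b library. SNHG7 had 15 counts in the tRF-3004b library and 258 in the control library, SNHG10 had 13 and 152, SNHG31 had 9 and 103, SNHG11 had 7 and 43, SNHG17 had 6 and 118, and SNHG30 had 5 and 85. Their log2 ratios ran from -0.80 for SNHG17 to 0.86 for SNHG11, and each interval held 0. Nearest to the filter on its upper side were SNHG11, SNHG14, SNHG25, SNHG19 and SNHG9. SNHG14, the long RNA that carries the SNORD115 and SNORD116 clusters, and SNHG25 each had 4 counts in the tRF-3004b library and 11 in the control library, SNHG19 had 3 and 19, and SNHG9 had 2 and 22. Just below the filter were MEG8 with 3 and 0 counts, SNHG26 with 0 and 23, CYTOR with 0 and 13, SNHG18 with 1 and 1, and SNHG28 with 0 and 4. SNHG27 had 0 and 1 counts, and SNHG22 had 0 in both. MEG8 did not exceed the floor of 3 counts in either library, so no ratio is given for it, although its counting interval lay above 0, beginning at 2.21. A count of 0 in the tRF-3004b library allows up to 3 counts or 1.69 CPM, which is more than the 1.15 CPM of SNHG26 in the control library, so no difference was detectable for SNHG26 at this depth.

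A few hosts made up most of the set when levels were compared per length, as TPM (counts per effective length, scaled to a fixed library total). In the tRF-3004b library the order was SNHG5 (1721 TPM), SNHG8 (1165), SNHG29 (1075), GAS5 (708), SNHG6 (369) and ZFAS1 (348). In the control library it was SNHG5 (1864 TPM), SNHG29 (1603), GAS5 (1212), SNHG8 (741), SNHG6 (525) and ZFAS1 (419). The counting intervals of SNHG8 and SNHG29, and those of SNHG6 and ZFAS1, overlapped in the tRF-3004b library, while no neighbours among the first 6 overlapped in the control library. These 6 held 82.8% of the members' TPM in the tRF-3004b library and 83.8% in the control library. DANCR stood at 210 TPM in the tRF-3004b library and at 137 TPM in the control library. SNHG25 was listed at 206 and 63.7 TPM, but this rests on 4 and 11 counts over an annotated 119 bases.

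**Figure D2:**
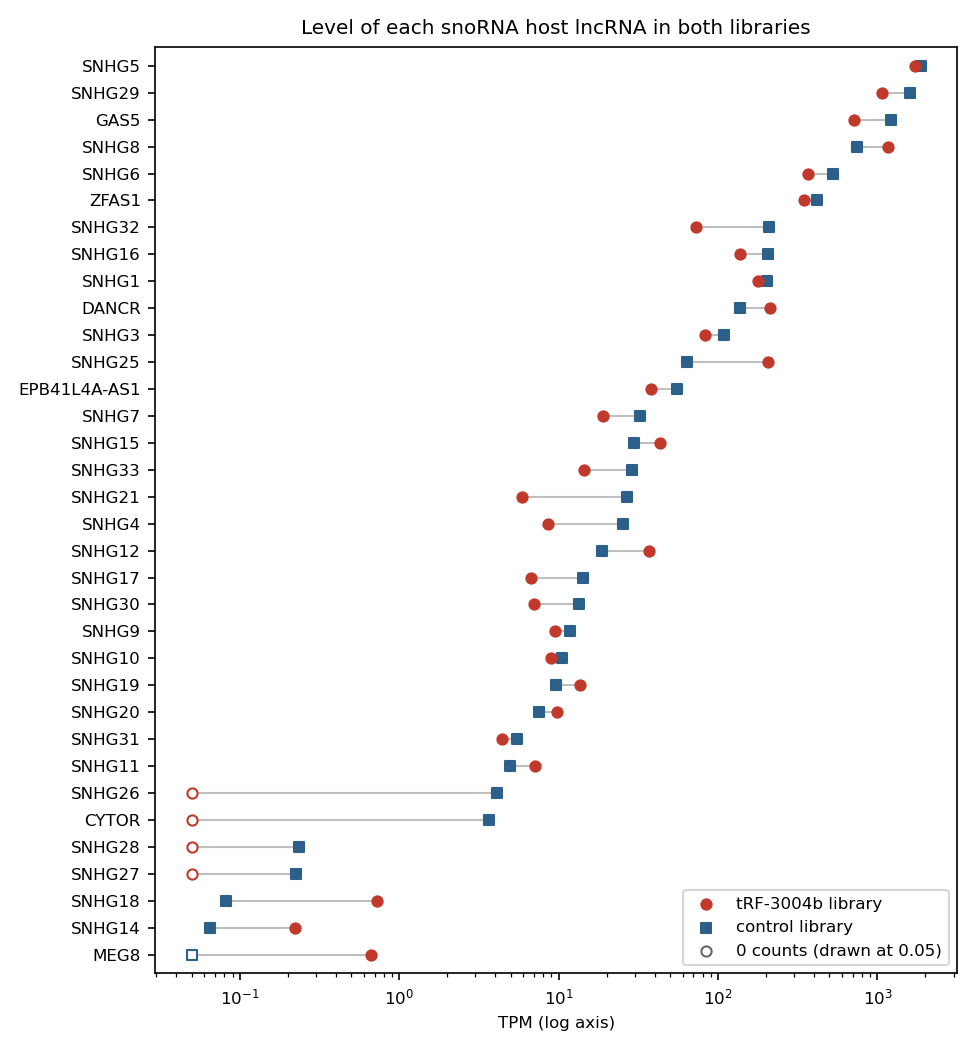
Level of each host in TPM (log axis) in the tRF-3004b library (circles) and the control library (squares), ordered by the control library. Open symbols mark 0 counts and are drawn at 0.05, and SNHG22, with 0 counts in both libraries, is left out. SNHG8, DANCR, SNHG12 and SNHG15 are among the hosts that lie further to the right in the tRF-3004b library, as do several hosts with few counts.

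The hosts are short, and short genes as a class were higher in the tRF-3004b library. The measured members had a median length of 1031 bases, beside 3283 for all measured genes, and 21 of the 28 fell in the shortest of 10 length bins (61 to 1313 bases). The shortest bin had a median log2 ratio of 0.62 and the longest of -0.44. After the median of its own length bin was subtracted from each gene, the members' median was -0.47. On that scale DANCR stood at 0.35, SNHG8 at 0.29, SNHG12 at 0.69, GAS5 at -1.09 and SNHG29 at -0.87. GAS5 was thus lower on every scale computed, while the distance of DANCR and SNHG8 from genes of their own length was smaller than from all genes. The part of length in these results was not tested.

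**Figure D3:**
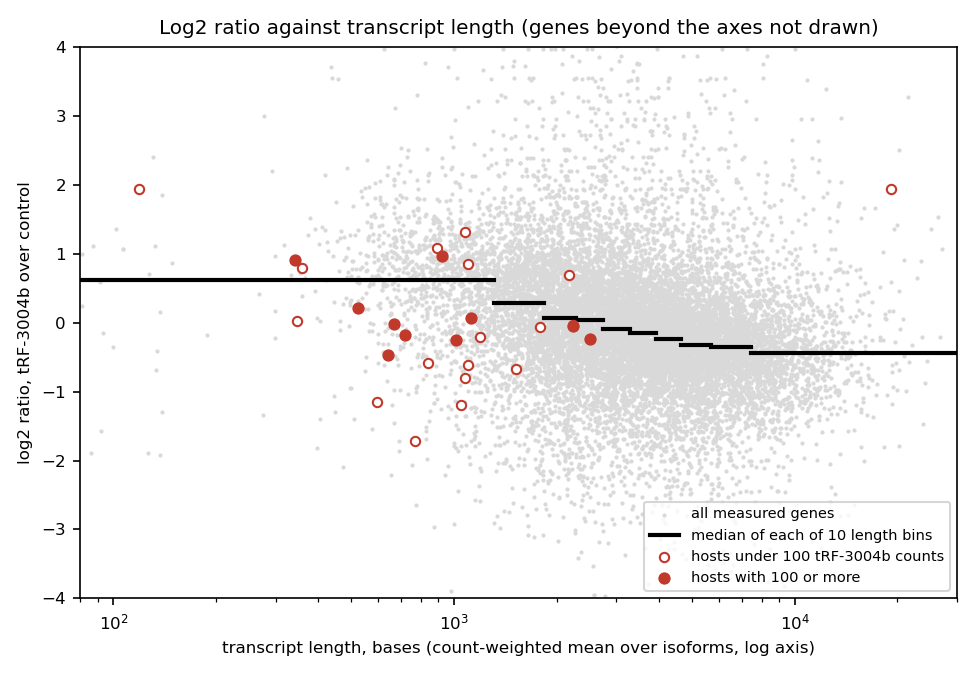
Log2 ratio (tRF-3004b over control) against transcript length (log axis) for all measured genes (grey), with the median of each length bin as a black bar and the measured hosts in red. Filled circles are the 10 hosts with at least 100 tRF-3004b counts, and most hosts lie below the bar of the shortest bin (0.62).

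Counts of the snoRNAs inside the hosts were compared with the hosts themselves. Poly-A selection is not meant to capture mature snoRNAs, and a mature snoRNA, its intron and an unspliced host cannot be told apart here. On the same strand as a member lay 174 snoRNAs, 33 of them with counts. Together they had 52 counts in the tRF-3004b library and 443 in the control library, a log2 ratio of 0.40 (-0.05 to 0.81), so the interval held 0. For 16 more snoRNAs inside members the annotation used gave no strand, among them all 11 in GAS5. When these were accepted as well, a choice made after the data were seen, the sums were 143 and 1147 counts, a log2 ratio of 0.48 (0.22 to 0.74). The 378 snoRNAs elsewhere had 118 and 1694 counts, a log2 ratio of -0.35 (-0.64 to -0.09).

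GAS5 and its snoRNAs lay on opposite sides of 0. Both are short enough for the shortest length bin, which had a median log2 ratio of 0.62, while the summed snoRNAs elsewhere stood at -0.35. The 11 snoRNAs within GAS5, all without a given strand, had 88 counts in the tRF-3004b library and 659 in the control library, a log2 ratio of 0.58 (0.25 to 0.91), beside -0.47 for GAS5. They made up 19.95% of the snoRNA and host counts in the tRF-3004b library (exact 95% binomial interval 16.3 to 23.99) and 10.8% in the control library (9.99 to 11.6). SNORD47, a guide for methylation of ribosomal RNA, held most of them, with 47 and 361 counts and a log2 ratio of 0.55 (0.08 to 0.99). SNORD79 had 9 and 85 counts and SNORD80 had 6 and 60, and their intervals held 0. SNHG1 did not show the same split. SNORD22 had 2 and 86 counts, a log2 ratio of -1.90 (-5.01 to -0.04), and SNORD28 had 8 and 67, a log2 ratio of 0.42 (-0.85 to 1.48). The 6 same-strand snoRNAs of SNHG1 had 15 and 233 counts, a log2 ratio of -0.47 (-1.33 to 0.28), beside 0.07 for SNHG1. With those of no given strand included, all 8 had 18 and 278 counts, a log2 ratio of -0.46 (-1.24 to 0.23). SNORD87 stood at 1.70 beside -0.18 for its host SNHG6. Of hosts with at least 20 snoRNA counts, SNHG6 (4.42% and 1.22%) and SNHG5 (1.03% and 0.37%) also had a higher share in the tRF-3004b library. The share was lower for SNHG1 (9.68% and 13.4%), SNHG29 (0.21% and 0.34%) and SNHG12 (8.11% and 11.0%). The binomial intervals of both libraries overlapped for SNHG5, SNHG1, SNHG29 and SNHG12, so no difference was resolved for them. They did not overlap for SNHG6 (2.14 to 7.99 and 0.85 to 1.70). SNHG29 and SNHG12 had only 2 and 3 snoRNA counts in the tRF-3004b library.

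**Figure D4:**
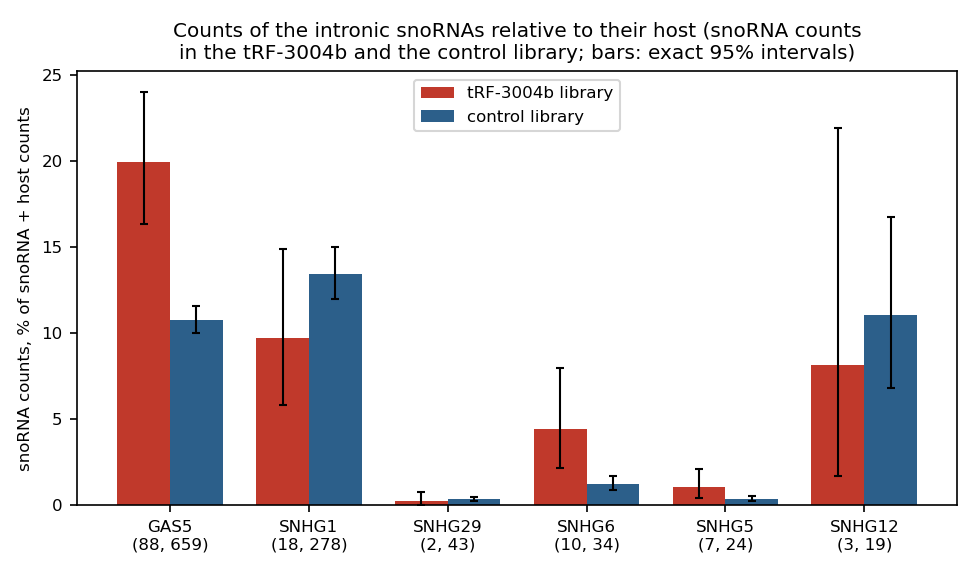
Counts of the snoRNAs inside a host as a percentage of snoRNA and host counts in the tRF-3004b library (red) and the control library (blue), for hosts with at least 20 snoRNA counts, snoRNAs without a given strand included. Error bars are exact 95% binomial intervals. For GAS5 the share was 19.95% in the tRF-3004b library and 10.8% in the control library.

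The isoforms of several hosts took different shares of the counts. These values are uncertain, because kallisto divides reads among isoforms that share most of their sequence. Of SNHG1, the isoform of 1043 bases held 56.1% of the counts in the tRF-3004b library and 11.4% in the control library, and the isoform of 1137 bases held 19.6% and 55.4%. Of GAS5, the isoform of 599 bases held 43.7% in the tRF-3004b library and 24.7% in the control library, and that of 656 bases held 38.7% and 62.3%. Of SNHG16, the isoform of 2534 bases held 83.3% and 66.0%. The 308-base isoform of SNHG8 held most of its counts in both libraries, at 91.6% and 83.6%.

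**Figure D5:**
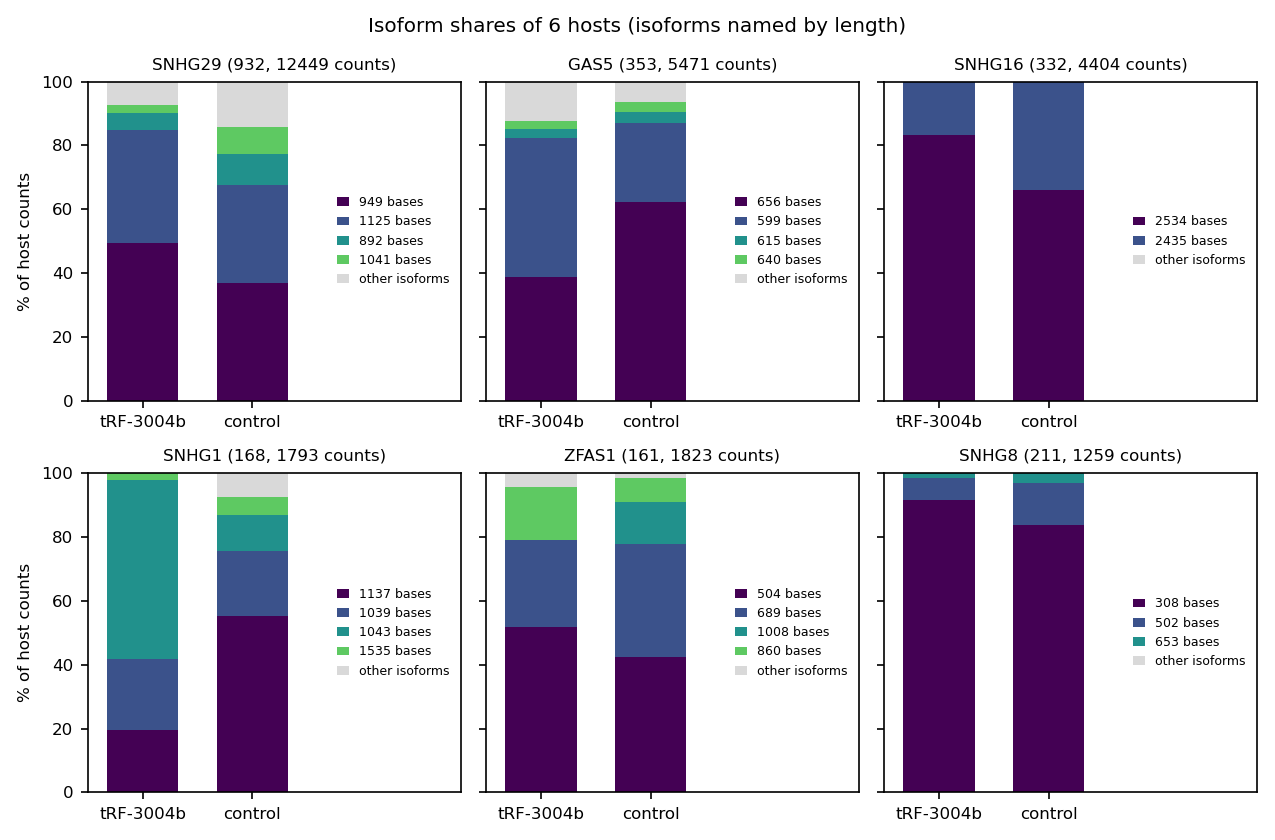
Share of each host's estimated counts given to its 4 most counted isoforms (colours, named by length) and to the rest (grey), in the tRF-3004b library on the left of each panel and the control library on the right. In SNHG1 the isoform of 1043 bases held 56.1% in the tRF-3004b library and 11.4% in the control library.

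Reads of some hosts could have been assigned to a different gene, which makes these values uncertain. The 31-base words compared here come from the GENCODE transcripts of each host, not from the RefSeq transcripts that were quantified. EPB41L4A-AS1 had 3394 words, while its only quantified transcript has 1194 bases. The shares were not split by strand, so overlap with a gene on the opposite strand can count. They therefore do not measure how many reads were ambiguous in these libraries. Of the 31-base words of SNHG21, 62.3% also occurred in another gene, as did 48% of those of EPB41L4A-AS1 (with EPB41L4A), 38.6% of SNHG25, 36.8% of ZFAS1, 35.2% of SNHG7, 34.6% of SNHG16, 30.4% of SNHG6, 23.6% of SNHG4 and 22.3% of SNHG32. SNHG4 shares 13% of its words with MATR3, and the sum of both had a log2 ratio of 0.30, beside -1.20 for SNHG4. The sign also turned for SNHG20 summed with SEC14L1 (-0.63, beside 0.69), for SNHG3 with RCC1 (0.44, beside -0.05) and for SNHG10 with GLRX5 (0.67, beside -0.06). SNHG20, SNHG3 and SNHG10 shared 7.68%, 4.56% and 16.6% of their words with these genes. MATR3 (2429 and 22042 counts), SEC14L1 (43 and 959) and GLRX5 (250 and 1703) had more counts than their hosts, and RCC1 had 261 and 1549. A sum follows the gene with more counts, so these sums do not show whether host reads were misassigned. GAS5 shared 2.69% of its words and SNHG15 2.68%. DANCR shared 11.5% and SNHG8 10%.

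Hosts whose promoter region faces a coding gene were set beside that neighbour. SNHG1 stood at 0.07 and SLC3A2, an amino acid transporter subunit whose start lies 224 bases away, at 0.09 (-0.18 to 0.34). GAS5 stood at -0.47 and ZBTB37, whose start lies 963 bases inside the span of GAS5, at -0.87 (-1.24 to -0.52). ZFAS1 stood at -0.01 and ZNFX1 at -0.49 (-1.27 to 0.19). SNHG10 stood at -0.06 (-1.001 to 0.76) and GLRX5, an iron-sulfur cluster protein, at 0.72 (0.52 to 0.91). Among hosts with few counts, the neighbours were TRAF7 at -1.03 beside SNHG19, BARD1 at -0.41 beside SNHG31, ACAA2 at -0.38 beside SNHG22 and the ribosomal protein gene RPS2 at -0.16 beside SNHG9. Neighbours lay on either side of 0.

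The start of a host was examined because a C followed by pyrimidines at the first base is the mark of messengers whose translation follows growth signals. A window of 30 bases, 10 before the start given in the RefSeq promoter table and 20 from it on, is shown for the 6 measured hosts with such a start, with the run in capitals (RefSeq, GRCh38.p14).
SNHG12 (chr1:28581854-28581883, minus strand, log2 ratio 1.31): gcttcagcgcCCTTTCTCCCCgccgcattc
SNHG5 (chr6:85678714-85678743, minus strand, log2 ratio 0.22): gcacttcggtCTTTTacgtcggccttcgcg
ZFAS1 (chr20:49278632-49278661, plus strand, log2 ratio -0.01): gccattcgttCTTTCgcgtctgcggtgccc
SNHG32 (chr6:31834906-31834935, plus strand, log2 ratio -1.15): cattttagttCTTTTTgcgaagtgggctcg
SNHG4 (chr5:139274091-139274120, plus strand, log2 ratio -1.20): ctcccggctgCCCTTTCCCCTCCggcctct
SNHG19 (chr16:2155339-2155368, minus strand, log2 ratio 0.80): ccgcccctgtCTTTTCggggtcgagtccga
These starts can differ from the outer end of the gene's span, which lies further upstream for SNHG12 and ZFAS1. A C at the table's start followed by at least 4 pyrimidines was found in 6 of the 24 measured members with a promoter entry, or 25%, beside 5.24% of 10906 measured genes and 64.2% of 67 ribosomal protein genes. The 6 hosts with such a start ran from SNHG4 at -1.20 to SNHG12 at 1.31. When the C could lie within 5 bases of the table's start, 12 of the 24 members (50%) had such a run. The share was then 22.6% of measured genes and 76.1% of ribosomal protein genes. GAS5, SNHG29 and SNHG1 had no such run within 5 bases of the table's start. Only the table's start was searched, so a run at another start of a host would be missed.

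The site for the tRF-3004b seed was searched in 1 transcript per host. The letters AGATTTG, complementary to bases 2 to 8, were searched on the transcript strand in 25 measured members with a paired GENCODE 29 transcript. They occurred in 1, or 4%, beside 26% of 13261 measured genes and 6.41% of 1295 genes of the shortest length bin. That member was EPB41L4A-AS1, whose log2 ratio was -0.20 (-0.70 to 0.26), and the site is shown in capitals.
EPB41L4A-AS1: gtggaaaatcAGATTTGcaagaaaagg
The transcript searched has 2969 bases and the one quantified 1194, so the site may lie outside the counted RNA. The control site CGCGTAC occurred in 0 of the 25. Among all GENCODE transcripts of a measured host, the tRF-3004b site also occurred in 4 of 17 for SNHG12, 3 of 25 for SNHG1, 1 of 5 for DANCR, 1 of 8 each for SNHG16 and SNHG17, and 6 of 26 for SNHG14, and no background was computed for that search. A match is a description, and no match says only that these letters are not in the transcript searched.

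Most genes for the proteins that pack snoRNAs had more RNA in the tRF-3004b library, and protein was not measured. All 8 snoRNP core genes were above 0 with intervals above 0, and 4 were at least 2-fold higher. Their median log2 ratio was 0.96, beside -0.11 for all measured genes, of which 23.3% had an interval above 0 and 12.3% were at least 2-fold higher. An interval leaves out 0 more readily where counts are many. The share over all measured genes was not matched for counts, here or for the lists below. NHP2, a box H/ACA protein, stood at 1.501 (1.30 to 1.70), NOP56, a box C/D protein, at 1.18 (1.05 to 1.31), NOP58 at 0.79 (0.66 to 0.92) and the pseudouridine synthase DKC1 at 0.52 (0.38 to 0.67). Of 13 snoRNP assembly genes, 8 had an interval above 0 and 1 below, beside 23.3% and 28.6% of all measured genes, with a median of 0.41. RPAP3 stood at 0.95 and RUVBL1 at 0.86, and NAF1 at -0.52 and TGS1 at -0.20.

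Genes for factors of nonsense-mediated decay were mixed. Of 18 genes, 9 had an interval above 0 and 3 below, beside 23.3% and 28.6% of all measured genes, with a median of 0.47. MAGOH, a subunit of the exon junction complex, stood at 0.82 (0.54 to 1.08), UPF3B at 0.66 (0.46 to 0.85), UPF3A at -0.46 (-0.99 to 0.04) and the exonuclease XRN1 at -1.19 (-1.47 to -0.93). Of 25 coding genes with a pyrimidine start, 10 had an interval above 0 and 14 below, beside the same 23.3% and 28.6%, with a median of -0.15. Neither list was set beside genes of similar counts. FAU, which encodes a ribosomal protein, stood at 1.69, NPM1 at 1.23, EIF4B at -0.83 and the poly-A binding protein PABPC1 at -0.92.

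Coding genes that hold a snoRNA on their own strand were the last group set beside the hosts. Of 151 measured, 70 had an interval above 0 and 49 below, beside 23.3% and 28.6% of all measured genes, with a median log2 ratio of 0.16. These shares were not matched for counts, so a higher share of such intervals can follow from higher counts. When snoRNAs without a given strand were accepted too, 228 were measured, 85 and 84 had such intervals, and the median was -0.04. HSPA8, a chaperone, stood at 1.74 (1.70 to 1.78), PPAN at 1.70, ZBED3 at -1.60 and HTR2C, a serotonin receptor with 1 and 123 counts, at -3.35. The 29 coding hosts that encode ribosomal proteins had a median of 0.52, from RPL3 at -0.59 and RPL4 at -0.18 to RPL23 at 1.10 and RPL17 at 1.15, and the 122 other coding hosts had a median of -0.02. The 928 other measured long non-coding RNAs had a median of 0.03.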

How the data were processed

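The authors quantified RefSeq transcripts with kallisto 0.46.1 on GRCh38, per the submitters' processing notes, and deposited for each library an estimated count and a TPM value per transcript. Per the labels' protocols, libraries were poly-A selected and directional. For strand and trimming, the setting is not given in the sources used here. Per gene symbol, TPM values and estimated counts were added up, and counts were rounded. Of 70866 transcripts, 312 stayed unnamed and were left out (0.06174% of the tRF-3004b and 0.06085% of the control counts). Library sizes were scaled with TMM factors (edgeR 4.0.16, R 4.3.3), 0.983 for the tRF-3004b and 1.02 for the control library. The log2 ratio is tRF-3004b over control with 0.5 counts added, with an exact conditional 95% interval (Clopper-Pearson). No test was used, since there was 1 library per group. The computation was tested on simulated data.

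SnoRNA positions come from RefSeq (GRCh38.p14) and strands from GENCODE 29 or the RefSeq promoter table. The planned rule required the same strand. A looser rule, which also accepts snoRNAs without a given strand, was run first for part of the work and then kept as an alternative, so both sets of values had been seen when the planned rule was restored. Named genes are each member with at least 10 counts, the 2 highest and 2 lowest measured genes of each list, the 5 snoRNAs with most counts, facing neighbours with a mean CPM of at least 10, and the 5 members on either side of the filter. The members and lists were chosen with earlier results of these data known.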

Additional observations from a re-analysis of the deposited data

How the results depend on the processing

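No paired analysis was possible because there was 1 library per group. Under total counts, DESeq2 1.42.0 size factors and 5 added counts, all 28 measured members stayed within their counting interval. The members at least 2-fold higher numbered 2 at a mean CPM of at least 5, 1 with gene TPM and 2 after the length median was subtracted, and those at least 2-fold lower numbered 7 with no filter beyond 1 count, where 6 were at least 2-fold higher, and 7 after the length median was subtracted. The members' median was -0.47 after the length median was subtracted. SNHG5 turned to -0.12 with gene TPM and to -0.40 after the length median was subtracted. The sign of SNHG1 also turned under these settings, that of SNHG9 under these and total counts, and that of ZFAS1 under DESeq2 size factors. With gene TPM, the medians were 0.62 for snoRNP core genes, 0.071 for assembly genes, -0.49 for coding genes with a pyrimidine start and -0.14 for coding hosts, while the median of all genes was -0.38. The snoRNP core median was 0.64 after the length median was subtracted, and the pyrimidine-start median was -0.20 with total counts. With no filter beyond 1 count, the higher genes made up 34.3% of those past 2-fold. Accepting snoRNAs without a given strand, chosen after seeing the data, moved the summed snoRNAs inside members to 0.48 with an interval above 0, against 0.40 with an interval that held 0 under the planned rule, so that call rests on the strand rule. Apart from these rules and scales, the cause of each change was not tested. Members with under 10 tRF-3004b counts had wide intervals, which held 0 except for SNHG4, SNHG21 and MEG8, and SNHG22 had no counts.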

Other observations

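The coding gene whose end lies nearest to that of SNHG8 was looked at after its values were seen. PRSS12, a secreted serine protease on the opposite strand, ends 215 bases from the end of SNHG8. It had 5 counts in the tRF-3004b library and 613 in the control library, a log2 ratio of -3.43 (-5.08 to -2.22), beside 0.91 for SNHG8. TRNAU1AP, whose end lies 7 bases inside the span of SNHG12, had 63 and 538 counts, a log2 ratio of 0.39 (-0.01 to 0.77), beside 1.31 for SNHG12.

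Among snoRNAs with few counts, 4 on the strand of their host had an interval above 0, and they were chosen after their values were seen. SNORD87, inside SNHG6, had 10 counts in the tRF-3004b library and 34 in the control library, a log2 ratio of 1.70 (0.54 to 2.77). SNORA24, inside SNHG8, had 6 and 12 counts, a log2 ratio of 2.40 (0.79 to 4.01). Of the 31-base words in the GENCODE transcripts of SNHG8, 10% also occur in SNORA24. SNORD50B, inside SNHG5, had 7 and 24 counts, a log2 ratio of 1.67 (0.25 to 2.97). SNORA61, inside SNHG12, had 2 and 0 counts, under the floor of 3 in both libraries, so no ratio is given.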
